A study of Drosophila melanogaster with 14 samples.

Results

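RNA from Drosophila melanogaster embryos carrying a broad mutation of the gene lola was set against RNA from embryos mutant for the single isoform lola-F, and the question asked of each gene was whether its change differed between the 2 mutations. Every one of the 10 embryo libraries of the series was used, out of 14 libraries in all. The lola-null set held 2 mutant libraries (genotype lola E76 / Df(2R)ED2076) and 2 control libraries (Wild type / Df(2R)ED2076). The lola-F set held 3 mutant libraries (lola-F stop / Df(2R)ED2076) and 3 control libraries (Wild type / Df(2R)ED2076). All 4 groups thus carried the deficiency Df(2R)ED2076 over the named chromosome, controls included, so that the controls had 1 intact copy of whatever the deficiency removes. Embryos of both sets were labelled as 15 h old. The sample protocol gives 2 h of collection and 13 h of development for the lola-F set, and the series' design text gives the same times without naming a set. Mutants were sorted by hand on mCherry while controls were collected in parallel. Whole embryos were used. Pools of 100 embryos are stated for the lola-F set, with no number stated for the other set. Each set was compared with its own controls, and the quantity tested was the lola-null change minus the lola-F change, called the difference below. Its unit is log2, so a difference of 1 means that the ratio of mutant to control was 2-fold larger in the lola-null set.

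The gene lola (longitudinals lacking) encodes a large family of transcription factors that share a BTB domain and differ in their zinc fingers, which are added by alternative splicing. Its best known role is in the growth and guidance of axons, and the F isoform is 1 member of the family, whereas a null allele is meant to affect all of them. Late embryos are the stage at which neurons differentiate and the epidermis secretes the larval cuticle, a layered coat of chitin and cuticle proteins.

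The libraries held between 3326811 (lola-F control 1) and 22629694 (lola-F mutant 3) counts in genes, and 4178333 to 7098985 in the lola-null set. Levels below are CPM, read counts divided by the size of the library in units of 1000000 counts, with sizes scaled over the 10 libraries. Library profiles correlated at 0.893 to 0.982 within the lola-null set, at 0.907 to 0.995 within the lola-F set and at 0.485 to 0.566 between them (Pearson's r of log2 CPM, a description). The lola-null controls differed from the lola-F controls, of the same labelled genotype, age and tissue, in 7115 of 10848 genes tested, 65.6%, in edgeR's quasi-likelihood test at an adjusted p of 0.05. Separate crosses or collections are not stated for the replicates, so p-values measure the spread between these libraries only. The closest replicates were lola-F mutants 1 and 2, at 3.08 times the chi-square of counting error, against 12.2 to 85.4 times for every other pair. In lola-F control 1, 66.7% of reads fell in the summary rows for reads not assigned to a gene, against 6.32 to 7.75% in the other lola-F libraries and 18.6 to 44.5% in the lola-null libraries. The difference between the 2 effects and any difference in age, rearing or preparation between the sets cannot be told apart. Within a set, an effect of the mutation and any difference in stage between mutants and controls cannot be told apart either.

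The level of the mutated gene itself was looked at first. At 2R 10481894 to 10543291 on the minus strand (BDGP6.54), lola was at 1056 and 323 CPM in the lola-null mutants and at 848 and 1177 CPM in their controls. In the lola-F set lola was at 163, 165 and 243 CPM in mutants and at 310, 289 and 387 CPM in controls. Mutants and controls did not overlap in the lola-F set. In the lola-null set the library labelled null mutant 1 lay between its controls and the library labelled null mutant 2 below both. The count of lola thus did not separate null mutant 1 from its controls. Whether this allele lowers the number of lola reads is not stated, so the count does not settle the label. Below, lola-null mutant 1 means the library so labelled. The difference for lola was 0.23 ± 0.59 (SE; 95% interval −1.08 to 1.54; edgeR adjusted p = 0.853); it was −0.87 (adjusted p = 0.194) without null mutant 1 and 0.84 (adjusted p = 0.174) without null mutant 2. The neighbouring BTB gene psq had a like pattern, with 200 and 52.4 CPM in lola-null mutants against 189 and 231 CPM in lola-null controls, and 35.7, 37.1 and 38.6 CPM in lola-F mutants against 78, 64 and 113 CPM in lola-F controls. Its difference of 0.46 ± 0.64 did not pass (edgeR adjusted p = 0.705).

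Across the genome the change of 932 genes differed between the 2 mutations. The difference was positive for 749 genes (6.90% of those tested) and negative for 183 (1.69%), by edgeR's quasi-likelihood test of the interaction with Benjamini-Hochberg adjustment over 10848 genes. In the same 10-library fit the lola-null mutants passed as higher than their controls in 1818 genes (16.8%) and as lower in 831 (7.66%). The lola-F mutants passed as higher in 18 genes (0.166%) and as lower in 39 (0.360%). Most differences were of a kind in which the lola-null change passed and the lola-F change did not, for 690 of the 749 positive and 172 of the 183 negative ones. A further 45 positive and 9 negative ones had neither change called on its own, and 6 genes moved in opposite directions.

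The genes with a positive difference had a median level of 17.7 CPM in lola-null mutants, 1.83 CPM in lola-null controls, 34.9 CPM in lola-F mutants and 38.7 CPM in lola-F controls. Thus the lola-null controls were the group apart, and 558 of the 749 genes (74.5%) were lower in both lola-null controls than in every lola-F library, against 37.9% of all genes. The genes with a negative difference had a median of 8.63 CPM in lola-null mutants, 37.7 CPM in lola-null controls, 34.3 CPM in lola-F mutants and 40.6 CPM in lola-F controls, so that here the lola-null mutants were the group apart. The lola-null controls enter both comparisons, and these levels describe the called genes without a test. The lower-called genes also had longer joined exons (median 3314 bases) than the higher-called genes (1557) and all genes (2001), and 22.4% of them lay on the X chromosome, against 15.8% of all genes tested.

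How the libraries were scaled bore on the balance of the 2 directions. The median difference over all genes was 0.31, with a median change of 0.30 in the lola-null set and −0.04 in the lola-F set. With each set scaled only within itself, a choice made once the data had been seen, the median difference was 0.04, and 532 genes (4.90%) passed as higher and 291 (2.68%) as lower, so that 64.6% of calls were higher, against 80.4%. All 532 were among the 749, and all 183 were kept as lower. The higher share was 59.7% under upper quartile scaling (534 higher, 361 lower) and 50% without a filter on low counts (521 higher, 521 lower). Single libraries moved the counts as well. Higher genes numbered 241 without lola-null control 2, 439 without lola-null control 1, 1342 without lola-null mutant 2, 277 and 283 without lola-F mutants 2 and 1, and 438 and 445 without lola-F controls 2 and 3; without lola-null mutant 1 there were 550. Lower genes numbered 52 and 103 without lola-null controls 2 and 1, 92, 61 and 510 without lola-F controls 1, 2 and 3, and 274 without lola-null mutant 1. None of the 932 differences changed sign in any of the 20 alternatives run, and 192 higher and 19 lower genes passed in all 21 settings. Part of the genes described below are of this kind, and for many others the settings that ended the call are given.

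**Figure D1:**
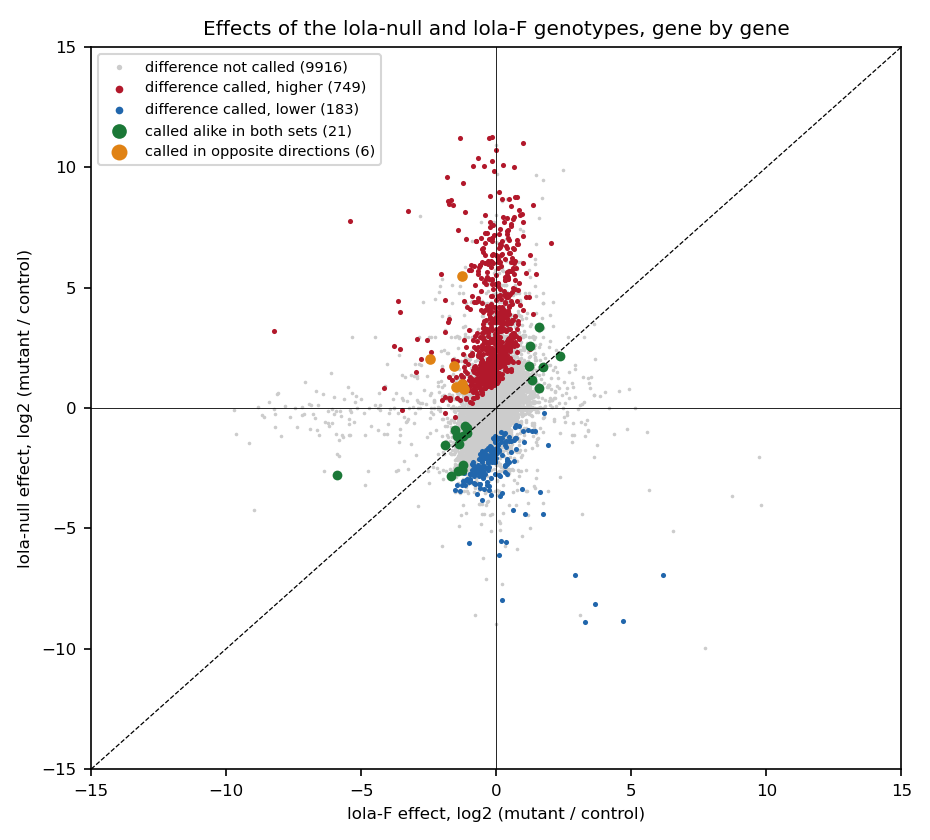
Change in lola-null mutants (vertical axis, log2 of mutant over control) against change in lola-F mutants (horizontal axis, same unit) for 10848 genes, with points coloured by the outcome of the tests and the dashed line marking equal change. Most of the 749 genes with a positive difference stand in a column near 0 on the horizontal axis, and the 21 genes called alike have both changes on 1 side of 0, at differences of −1.32 to 3.10 from the dashed line.

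Cuticle protein genes had the highest median difference of the 28 lists. Most were far higher in lola-null mutants than in their controls, while their summed level was high in lola-F mutants and controls alike. Of 94 cuticle genes tested, among 135 in the files, the difference passed as higher in 54 and as lower in none, and 35 of the 54 passed in all 21 settings. Their lola-null change passed as higher in 74 and their lola-F change in none in edgeR, although 23 of the lola-F changes had an unadjusted p under 0.05 and 11 passed as higher in DESeq2 and 1 in limma-voom. The median difference was 5.11, with a median lola-null change of 5.43 and a median lola-F change of 0.20, beside 0.31, 0.30 and −0.04 for all genes. Over all genes the difference passed as higher in 6.90% and the lola-null change in 16.8%. Set by set, where the lola-null fit tested 69 cuticle genes, 63 passed as higher in lola-null and 12 in lola-F mutants. Such calls made up 7.42% and 3.32% of all genes. In 19 of the 94 a group had no counts, and with those genes at their bound the median lola-null change was 4.12 and the median difference 4.18. Without lola-null mutant 1, 49 of them passed as higher, and scaled within sets 53. Summed over the list, the level was 5209 and 4484 CPM in lola-null mutants and 344.7 and 336 CPM in lola-null controls. In the lola-F set the sum was 10570, 9998 and 10310 CPM in mutants and 7559, 8103 and 7404 CPM in controls. The lola-null controls thus had the least cuticle RNA of all libraries, and no groups overlapped. In whole embryos, fewer cells of a type, less RNA per cell and a difference in stage between mutants and controls cannot be told apart.

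TwdlL, a member of the Tweedle family of cuticle proteins (3R 26624587 to 26625652), was at 185 and 173 CPM in lola-null mutants against 0.726 and 0.341 CPM in lola-null controls. In the lola-F set TwdlL was at 21.4, 19.1 and 13 CPM in mutants against 7.44, 8.27 and 5.36 CPM in controls. Mutants were above controls in both sets without overlap, and the difference was 7.10 ± 0.52 (edgeR adjusted p = 0.000124). Cpr67Fa2, a chitin-binding cuticle protein, was at 17.9 and 25.2 CPM in lola-null mutants against 0 and 0.114 CPM in lola-null controls, and at 26.1, 24.3 and 19.9 CPM in lola-F mutants against 34.8, 33.8 and 26.6 CPM in lola-F controls. Here the lola-null mutants lay at the level of the lola-F libraries, and the difference was 8.44 ± 0.60 (edgeR adjusted p = 0.000124). For obst-E, a chitin-binding protein of the larval cuticle, lola-null mutants held 48.4 and 52.6 CPM and lola-null controls 0.544 and 0.341 CPM. Its lola-F mutants held 170, 172 and 203 CPM and its lola-F controls 278, 318 and 133 CPM. The lola-F groups overlapped, the lola-null groups did not, and the difference was 7.27 ± 0.62 (edgeR adjusted p = 0.000166).

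Other cuticle genes were likewise near or at 0 in the lola-null controls. Cpr56F was at 75.7 and 60.7 CPM in lola-null mutants against 0.726 and 0.341 CPM in their controls (difference 6.61 ± 0.40, edgeR adjusted p = 8.31e-05). Ccp84Ag had 74.9 and 73.3 CPM in lola-null mutants against 0.726 and 1.02 CPM in their controls (difference 6.15 ± 0.49, edgeR adjusted p = 0.000151). Cpr65Ec had 34.8 and 34.4 CPM in lola-null mutants and no counts in lola-null controls, at least 165-fold higher against a floor of 3 counts over the group, and 13 to 17 CPM in lola-F mutants against 15.2 to 19.6 CPM in lola-F controls. The larval cuticle genes Lcp65Ag2 and Lcp65Ag3 also passed (differences 8.47 and 6.72), but they are near-identical copies whose shared reads the counting may have dropped or split, and values of the Cpr, Twdl and Lcp families carry that limit in general. TwdlM, at 563 and 482 CPM in lola-null mutants against 2 and 1.59 CPM in their controls, had a wide interval (difference 11.47, 95% interval 7.70 to 15.24, edgeR adjusted p = 0.00305). Its lola-F controls disagreed among themselves, with 31.8, 32.6 and 0.554 CPM beside 2.42, 2.71 and 1.51 CPM in lola-F mutants.

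**Figure D2:**
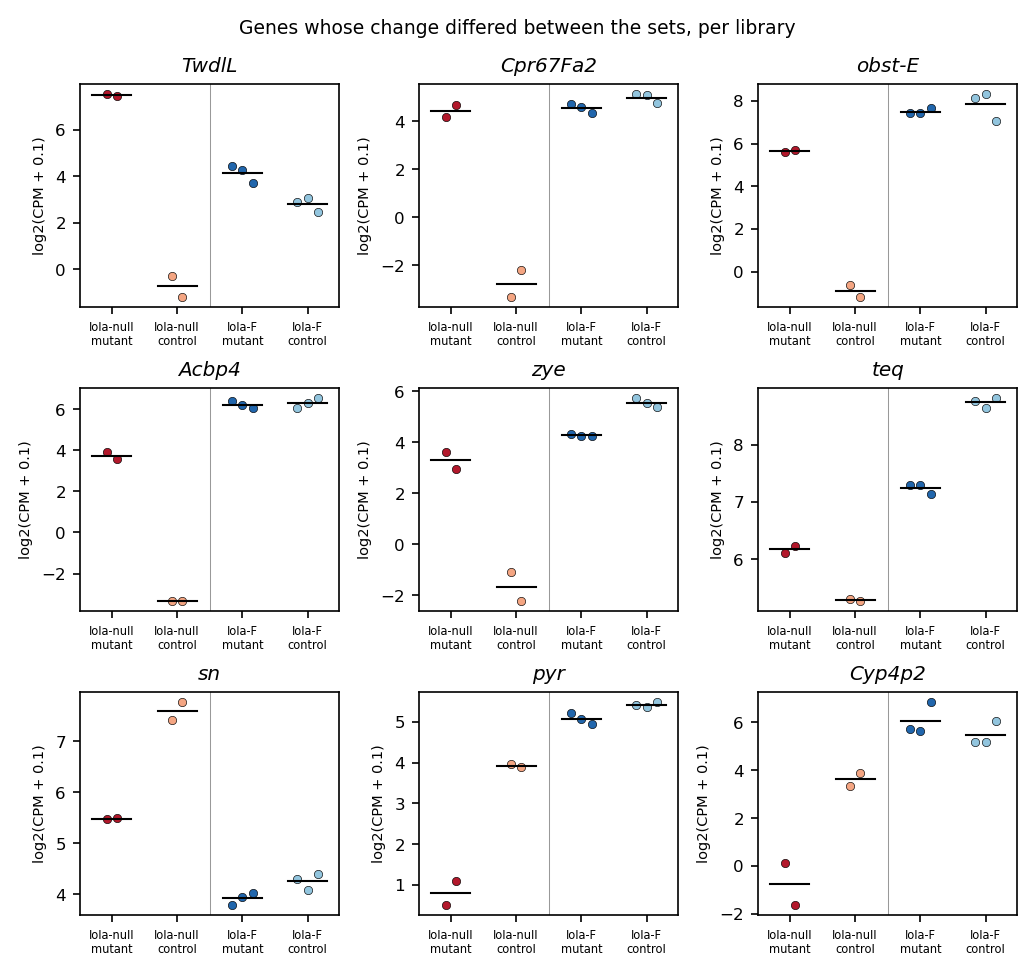
Level of 9 genes with a called difference in each of the 10 libraries, as log2(CPM + 0.1), with lola-null mutants and controls left of the grey line, lola-F mutants and controls right of it, and bars at the group means. TwdlL, Cpr67Fa2, obst-E, Acbp4 and zye are lowest in the 2 lola-null controls, whereas pyr and Cyp4p2 are lowest in the 2 lola-null mutants.

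Other products of the epidermis followed in part. Of 19 genes of the Osiris and Vajk families, which encode secreted or vesicle-linked proteins of cuticle-forming cells, the difference passed as higher in 6 and as lower in none, the lola-null change as higher in 14 and the lola-F change in none. Over all genes these shares were 6.90%, 1.69%, 16.8% and 0.166%. The median difference of the list was 2.05. The 6 were 3 without lola-F control 2 or lola-null control 2. Summed levels were 9109 and 6840 CPM in lola-null mutants against 3117 and 2240 CPM in lola-null controls, and 1461, 1433 and 1413 CPM in lola-F mutants against 1081, 1198 and 824 CPM in lola-F controls. Unlike the cuticle list, this list was lower in the lola-F set than in the lola-null set. Vajk2 was at 95.3 and 51.5 CPM in lola-null mutants against 2.36 and 4.21 CPM in lola-null controls, and at 699, 700 and 734 CPM in lola-F mutants against 494, 550 and 422 CPM in lola-F controls (difference 3.90 ± 0.45, edgeR adjusted p = 0.000816). Vajk4 ran the other way between the sets, with 186 and 190 CPM in lola-null mutants against 4.54 and 3.30 CPM in lola-null controls, and 0.0923 to 1.07 CPM in all lola-F libraries (difference 4.49 ± 0.94, edgeR adjusted p = 0.0174; not past 0.05 without lola-F control 1, lola-F control 2 or lola-null control 2).

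Among 33 genes of chitin synthesis and the apical matrix, the difference passed as higher in 6 and as lower in 1 (beside 6.90% and 1.69% of all genes), with a median of 0.76. The number higher was 3 without lola-F mutant 1 or 2 or either lola-null control. drd (drop-dead), a membrane protein, was at 75.9 and 47 CPM in lola-null mutants against 5.45 and 2.39 CPM in lola-null controls, and at 75.8, 81.3 and 67.1 CPM in lola-F mutants against 80.7, 91.6 and 95.2 CPM in lola-F controls. It was low in the lola-null controls alone, with a difference of 4.27 ± 0.47 (edgeR adjusted p = 0.000672). snsl, an extracellular protein of the cuticle, also passed (difference 3.76 ± 0.50, edgeR adjusted p = 0.00192). The 1 lower gene was grh, which encodes the epidermal transcription factor Grainy head, with 23.7 and 16 CPM in lola-null mutants against 86 and 80.1 CPM in lola-null controls. In the lola-F set grh had 56.1, 52.5 and 31.3 CPM in mutants against 67.9, 61.1 and 75.9 CPM in controls, without overlap (difference −1.51, edgeR adjusted p = 0.0452). It was singled out after its values were seen. Its call was lost in limma-voom, under the replicate block and without lola-F control 1 or 2, among other settings.

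Of 28 genes of tanning and dopamine metabolism the difference passed as higher in 7 (beside 6.90% of all genes), with a median of 0.80. The number was 1 without lola-null control 2, 2 without lola-F mutant 2, 3 without lola-F mutant 1 or lola-F control 2, and 4 without any 1 other library except lola-null mutant 2. Ddc, which makes dopamine from dopa, was at 21.9 and 7.86 CPM in lola-null mutants against 1.09 and 0.228 CPM in lola-null controls, and at 55.6, 54.3 and 62.4 CPM in lola-F mutants against 82.7, 86.1 and 154 CPM in lola-F controls (difference 5.57 ± 0.80, edgeR adjusted p = 0.0028). Mutants lay above controls in the lola-null set and below controls in the lola-F set, although the lola-F change of −0.91 did not pass (edgeR adjusted p = 0.206). ple, the tyrosine hydroxylase that precedes Ddc, had 12.8 and 4.49 CPM in lola-null mutants against 7.08 and 5.69 CPM in lola-null controls, which overlapped, and 46.1, 50.5 and 30.4 CPM in lola-F mutants against 192, 190 and 95.5 CPM in lola-F controls. Its difference of 2.38 ± 0.64 (edgeR adjusted p = 0.0464) was lost in 14 of 20 alternatives, among them without any 1 library other than lola-F control 3 and lola-null mutant 2. Tdc1, a tyrosine decarboxylase that makes tyramine, was at 9.61 and 6.96 CPM in lola-null mutants against 1.63 and 0.341 CPM in lola-null controls and at 67, 65.7 and 63.2 CPM in lola-F mutants against 77.1, 79.6 and 86.3 CPM in lola-F controls (difference 3.53 ± 0.55, edgeR adjusted p = 0.00412). The other enzymes of that path did not pass, with differences of 0.68 ± 0.39 for Tdc2 and 1.03 ± 1.03 for Tbh (edgeR adjusted p = 0.319 and 0.584). In the octopamine and tyramine list as a whole 2 of 12 genes passed as higher, beside 6.90% of all genes. They were Tdc1 and TyrRII, and the call of TyrRII was lost in DESeq2 and with no low-count filter, among other settings.

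Midgut digestive enzymes were far apart between the sets. Of 59 tested, the difference passed as higher in 8, the lola-null change as higher in 20 and lower in 1, and the lola-F change as higher in 4. Over all genes these shares were 6.90%, 16.8%, 7.66% and 0.166%. The lola-F count depended on the fit. In DESeq2 21 passed as higher in lola-null and 19 in lola-F mutants, and with the replicate block 14 and 0. Set by set, where the lola-null fit tested 23 of these genes, 11 passed as higher in lola-null and 17 in lola-F mutants. Set by set, such calls made up 7.42% and 3.32% of all genes. In the main fit 51 of the 59 had a lola-null and 52 a lola-F change above 0. Without lola-null control 2 the difference passed in 3. The summed level was 887 and 825 CPM in lola-null mutants against 442 and 404 CPM in lola-null controls, whereas it was 27890, 25480 and 34570 CPM in lola-F mutants against 16620, 20210 and 20030 CPM in lola-F controls. Within each set the mutants were higher without overlap. The maltase Mal-A2 had 7.29 and 6.29 CPM in lola-null mutants against 0.363 and 0.683 CPM in lola-null controls, and 82.1, 75 and 98.6 CPM in lola-F mutants against 61.6, 62 and 57.1 CPM in lola-F controls (difference 3.09 ± 0.40, edgeR adjusted p = 0.00164). The protease Jon65Aiii stood at 16.6 and 12.4 CPM in lola-null mutants against 0 and 0.569 CPM in lola-null controls, and between 646 and 1322 CPM in the lola-F libraries (difference 4.93 ± 0.71, edgeR adjusted p = 0.00279). Both belong to families of like genes, so shared reads limit their values.

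Detoxification genes (cytochrome P450s and glutathione and glucosyl transferases) were called in both directions, with 27 of 140 higher and 3 lower, beside 6.90% and 1.69% of all genes, and a median difference of 0.72. The number higher was 5 and 6 without lola-F mutants 2 and 1 (medians 0.22 and 0.19), 8 and 14 without lola-null controls 2 and 1, 15 and 16 without lola-F controls 2 and 3, and 10 with the replicate block. The transferase Ugt303B3 had 32 and 33.3 CPM in lola-null mutants against 6.54 and 5.12 CPM in lola-null controls, and 32.3, 26.7 and 28.8 CPM in lola-F mutants against 32.4, 31.2 and 34.2 CPM in lola-F controls. The lola-null mutants thus lay within the range of the lola-F libraries, and the difference was 2.65 ± 0.29 (edgeR adjusted p = 0.000677). The P450 gene Cyp4p2 ran the other way, at 0.994 and 0.225 CPM in lola-null mutants against 10.2 and 14.8 CPM in lola-null controls, and at 52.6, 50.2 and 114.8 CPM in lola-F mutants against 36.6, 36.6 and 66.3 CPM in lola-F controls (difference −4.86 ± 0.82, edgeR adjusted p = 0.00622). Acbp4, an acyl-CoA binding protein, had 14.8 and 11.7 CPM in lola-null mutants and no counts in lola-null controls, at least 63-fold higher, and 65.5 to 92.7 CPM in all lola-F libraries.

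**Figure D3:**
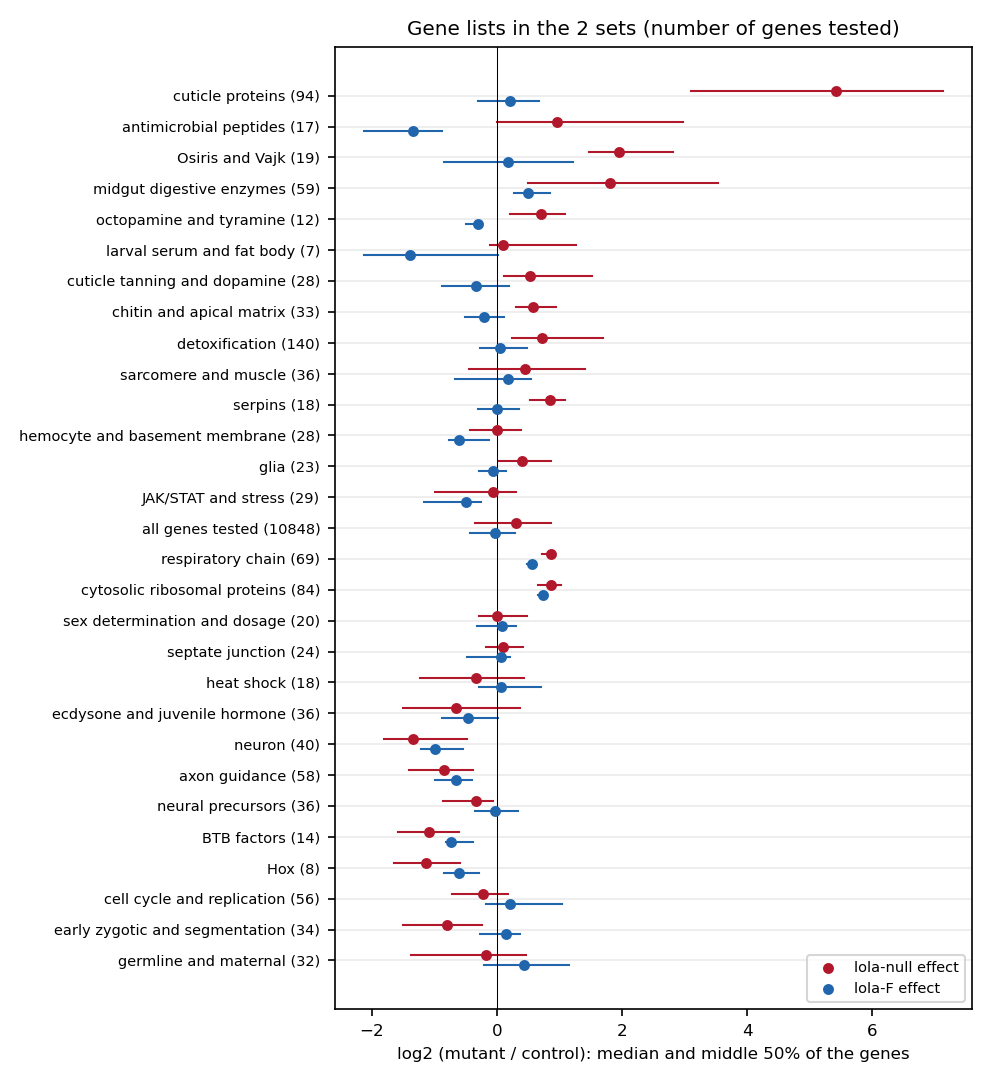
Median (dot) and middle 50% (line) of the log2 change of the genes of 28 lists and of all genes tested, with the lola-null effect in red above the lola-F effect in blue and lists ordered by their median difference. Cuticle proteins have medians of 5.43 and 0.20, whereas ribosomal proteins, respiratory chain, neuron and axon guidance genes have both medians on 1 side of 0.

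Among the genes with a negative difference, pyr (2R 11712263 to 11726345), an FGF ligand for mesoderm and glia, was at 1.33 and 2.02 CPM in lola-null mutants against 15.6 and 14.7 CPM in lola-null controls, and at 36.9, 33.6 and 30.9 CPM in lola-F mutants against 42.6, 41 and 44.7 CPM in lola-F controls. Mutants were lower without overlap in both sets, and the lola-F change of −0.34 did not pass (edgeR adjusted p = 0.297); the difference was −2.85 ± 0.34 (edgeR adjusted p = 0.000965). sn, which encodes the actin bundler fascin, was at 44.4 and 44.9 CPM in lola-null mutants against 172 and 218 CPM in lola-null controls and at 13.8, 15.3 and 16.1 CPM in lola-F mutants against 19.6, 16.8 and 20.9 CPM in lola-F controls. Its 4 groups did not overlap, and its difference was −1.79 ± 0.29 (edgeR adjusted p = 0.00536). The small heat shock gene Hsp27 had 8.29 and 10.1 CPM in lola-null mutants against 104 and 67.7 CPM in lola-null controls, and 5.52, 5.42 and 8.11 CPM in lola-F mutants against 10.7, 8.16 and 4.99 CPM in lola-F controls (difference −2.95 ± 0.49, edgeR adjusted p = 0.00621). Here the lola-null controls were the group apart.

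Sxl, the switch gene of sex determination, was at 15.1 and 19.6 CPM in lola-null mutants against 141 and 163 CPM in lola-null controls, and at 141, 149 and 69.9 CPM in lola-F mutants against 191, 169 and 200 CPM in lola-F controls (difference −2.50 ± 0.45, edgeR adjusted p = 0.00903). The lola-null mutants were below all other libraries. Of 20 sex determination and dosage genes, Sxl was the 1 that passed. The noncoding dosage RNA roX1 (lncRNA:roX1), named apart from the list, had a difference of −1.17 ± 0.31 that was lost in 8 of 20 alternatives, including without lola-F control 1 or 2, lola-null mutant 1 or either lola-null control (edgeR adjusted p = 0.0417), and lncRNA:roX2 one of 0.12 ± 0.54 (edgeR adjusted p = 0.924). Idgf2, a chitinase-like growth factor, was at 39.1 and 41.6 CPM in lola-null mutants against 154 and 155 CPM in lola-null controls, while its lola-F mutants (271, 268 and 440 CPM) overlapped their controls (267, 283 and 297 CPM). Its difference was −2.15 ± 0.35 (edgeR adjusted p = 0.00564). The remaining leading genes PXo, Got2 (a mitochondrial aminotransferase), grn (a GATA factor), hng3 and Ppa (an F-box protein) had differences between −2.74 and −1.63, and each passed in every alternative run.

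Of 34 early zygotic and segmentation genes, the difference passed as lower in 6 (beside 1.69% of all genes) and as higher in none, with a median of −0.90, and 1 of the 34 (beside 6780 of all 10848 genes) had a fitted lola-null change above 0. The number was 1 without lola-null mutant 1, lola-null control 2 or lola-F control 2, and 2 without lola-F control 1. brk, a repressor of Dpp targets, was at 3.48 and 3.60 CPM in lola-null mutants against 20.3 and 18.7 CPM in lola-null controls, and at 7.65, 6.29 and 6.65 CPM in lola-F mutants against 11.9, 10.8 and 9.79 CPM in lola-F controls (difference −1.81 ± 0.34, edgeR adjusted p = 0.0113). Mutants were lower without overlap in both sets, and the call was lost under the replicate block alone. Other members were less even: bnk, a gene of cellularization, was at 7.81 and 55.1 CPM in lola-null controls 1 and 2 beside 0 and 0.225 CPM in lola-null mutants, and its call was lost without lola-null control 2, lola-null mutant 1, lola-F mutant 3 or lola-F control 1 or 2. The neural Sox factor gene SoxN (difference −1.94 ± 0.37, edgeR adjusted p = 0.0116) passed in all alternatives but the replicate block, and the Hox gene Antp (−2.07 ± 0.50, edgeR adjusted p = 0.0309) was lost in 8 of 20, including without lola-F control 1 or 2, lola-null mutant 1 or either lola-null control. At the level of lists, the difference passed as lower in 2 of 36 neural precursor genes, 1 of 8 Hox genes, 2 of 36 hormone genes, 1 of 14 BTB factor genes and 2 of 56 cell cycle genes, beside 1.69% of all genes tested.

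A small set of genes moved in opposite directions, each higher in lola-null mutants and lower in lola-F mutants. They numbered 6 (0.0553% of genes tested): zye, teq, CG10175, CG14567, CG7255 and CG7720. teq, a large secreted serine protease related to neurotrypsin, was at 69.1 and 75.3 CPM in lola-null mutants against 39.2 and 38.6 CPM in lola-null controls, and at 158, 157 and 141 CPM in lola-F mutants against 434, 400 and 450 CPM in lola-F controls. Groups did not overlap in either set; the lola-null change was 0.89 ± 0.21 (edgeR adjusted p = 0.0123), the lola-F change −1.50 ± 0.17 (edgeR adjusted p = 0.0132) and the difference 2.39 ± 0.27 (edgeR adjusted p = 0.0007). zye, listed with the apical matrix genes, had 12.3 and 7.64 CPM in lola-null mutants against 0.363 and 0.114 CPM in lola-null controls, and 20.2, 19.1 and 18.9 CPM in lola-F mutants against 53.3, 46.8 and 41.4 CPM in lola-F controls (difference 6.74 ± 0.53, edgeR adjusted p = 0.000141). CG14567 fell to 2.23, 3.50 and 3.08 CPM in lola-F mutants, against 19.3, 20.5 and 9.05 CPM in lola-F controls, and was at 8.78 and 7.86 CPM in lola-null mutants against 2 and 2.05 CPM in lola-null controls (difference 4.49 ± 0.58, edgeR adjusted p = 0.00145). With the length trend removed the lola-F changes of teq (−0.65), zye (−0.59), CG7255 (−0.74) and CG10175 (−1.26) did not pass. Those of CG14567 and CG7720 did. With the lola-null set fitted on its own, the changes of teq (0.72), CG7255 (0.64) and CG7720 (0.855) did not pass. Those of zye, CG10175 and CG14567 did. The difference of all 6 genes passed in each of the 21 settings, but both separate changes passed together in only 7 (CG7255) to 12 (CG14567) of them.

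Differences for which the lola-F change passed and the lola-null change did not numbered 8. A lola-null change that missed the threshold may still add to the difference. Orct2, an organic cation transporter, was at 19.2 and 19.1 CPM in lola-null mutants against 13.4 and 16.5 CPM in lola-null controls, and at 12.2, 14.1 and 13.2 CPM in lola-F mutants against 28, 35.2 and 36 CPM in lola-F controls (difference 1.69 ± 0.30, edgeR adjusted p = 0.0083; lost without lola-F mutant 1, lola-F mutant 2 or lola-F control 3 and with no low-count filter). The glucosyl transferase Ugt317A1 had 81.5 and 129 CPM in lola-null mutants against 98.6 and 60 CPM in lola-null controls, which overlapped, and 8.62, 10.9 and 7.67 CPM in lola-F mutants against 37.8, 32.4 and 22.3 CPM in lola-F controls (difference 2.17 ± 0.46, edgeR adjusted p = 0.0174; lost without lola-F mutant 1, lola-F mutant 2 or lola-null control 2 and under the replicate block). In the other direction phr, a DNA photolyase, was at 39.8, 37.1 and 43.7 CPM in lola-F mutants against 9.52, 8.39 and 17.4 CPM in lola-F controls, with 13.4 and 22 CPM in lola-null mutants and 20.3 and 20.5 CPM in lola-null controls (difference −1.96 ± 0.47, edgeR adjusted p = 0.0294). Leaving out lola-F control 1 or 2, lola-null mutant 1, or either lola-null control ended the call of phr. For upd3, the JAK/STAT ligand, the lola-F change passed (−3.31 ± 0.42, edgeR adjusted p = 0.0184) but the difference of 2.79 did not (95% interval −0.67 to 6.26, edgeR adjusted p = 0.414). All 4 lola-null libraries held 0.182 CPM of upd3 or less.

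Genes changed alike were few in this fit. A gene was counted as alike when both changes passed in the same direction and the difference did not, which held for 7 genes higher (0.0645%) and 14 lower (0.129%). A p that misses the threshold does not show that 2 changes are equal, so the interval of the difference was used as well: it lay within −1 to 1 for 1 of the 7 and 4 of the 14, beside 1207 of all 10848 genes (11.1%). l(2)efl, a small heat shock protein of muscle (2R 23684651 to 23685543), was at 59 and 64.3 CPM in lola-null mutants against 20.5 and 17 CPM in lola-null controls, and at 505, 487 and 504 CPM in lola-F mutants against 114, 130 and 200 CPM in lola-F controls. It rose by 1.72 ± 0.29 and 1.75 ± 0.23 on the log2 scale (edgeR adjusted p = 0.0027 and 0.0198), without overlap in either set, and the interval of its difference was −0.86 to 0.80. Fs(2)Ket, the nuclear import receptor importin beta, fell to 58.8 and 50.3 CPM in lola-null mutants, against 125 and 183 CPM in lola-null controls, and to 50.1, 53.2 and 47.6 CPM in lola-F mutants, against 142, 111 and 142 CPM in lola-F controls. Levels were like in the 2 sets here, and the interval of the difference was −0.84 to 0.63.

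Hsc70-3, the chaperone BiP of the endoplasmic reticulum, was at 286 and 249 CPM in lola-null mutants against 571 and 624 CPM in lola-null controls, and at 325, 307 and 252 CPM in lola-F mutants against 666, 667 and 725 CPM in lola-F controls. Mutants were below controls in all libraries of both sets, with changes of −1.16 ± 0.22 and −1.22 ± 0.18 (edgeR adjusted p = 0.0043 and 0.0257) and an interval of the difference from −0.55 to 0.67. The glycosyl transferase Pgant5 and wde, a cofactor of histone methylation, also had intervals within these bounds. Grp170, another chaperone of that compartment, fell in both sets as well (−0.76 and −1.17), with an interval of −0.31 to 1.12. With the length trend removed neither change passed for Pgant5 (edgeR adjusted p = 0.321 and 0.105), wde (0.112 and 0.126) or Grp170 (0.152 and 0.056). Both changes of Hsc70-3 still passed there (−0.9125 and −1.005, edgeR adjusted p = 0.00499 and 0.0247). The planar cadherin stan had changes of −0.91 and −1.54 in the lola-null and lola-F sets, but with the length trend removed its lola-null change was 0.34 (edgeR adjusted p = 0.462) and its lola-F change −0.43 (edgeR adjusted p = 0.439). On the higher side stood Act87E, a muscle actin (1.76 ± 0.24 in the lola-null set and 1.23 ± 0.19 in the lola-F set), the lipase Lip1 (2.16 ± 0.38 and 2.36 ± 0.32), the maltase Mal-A1 (0.84 ± 0.22 and 1.60 ± 0.18), the P450 gene Cyp6a23 (2.58 ± 0.31 and 1.26 ± 0.23) and the phospholipase sPLA2 (1.15 ± 0.34 and 1.33 ± 0.22). The 95% intervals of the difference excluded 0 for Mal-A1 (−1.385 to −0.133) and Cyp6a23 (0.484 to 2.144). Neither difference passed after adjustment (edgeR adjusted p = 0.130 and 0.057). The lower genes mahe, sqd, mei-P26 and sog had lola-null changes of −2.81 to −2.36 and lola-F changes of −1.69 to −1.22, with differences of −1.12, −1.13, −1.32 and −1.30, and the difference passed in 3 (mahe) to 11 (mei-P26) of 21 settings. With the length trend removed the lola-F changes of mei-P26, sog and mahe were 0.05, −0.65 and −0.90. None of these passed (edgeR adjusted p = 0.953, 0.201 and 0.056). Both changes passed together in 15 of 21 settings for l(2)efl and Lip1, 13 for Act87E and Cyp6a23, 12 for Fs(2)Ket, 11 for Hsc70-3, mahe and sqd, 9 for stan, wde and mei-P26, 8 for Mal-A1, Grp170, Pgant5 and sog, and 4 for sPLA2. Cyt-b5-r and Tet moved in the same direction in both sets with a called difference in size (1.20 and −1.87, edgeR adjusted p = 0.0338 and 0.0295).

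**Figure D4:**
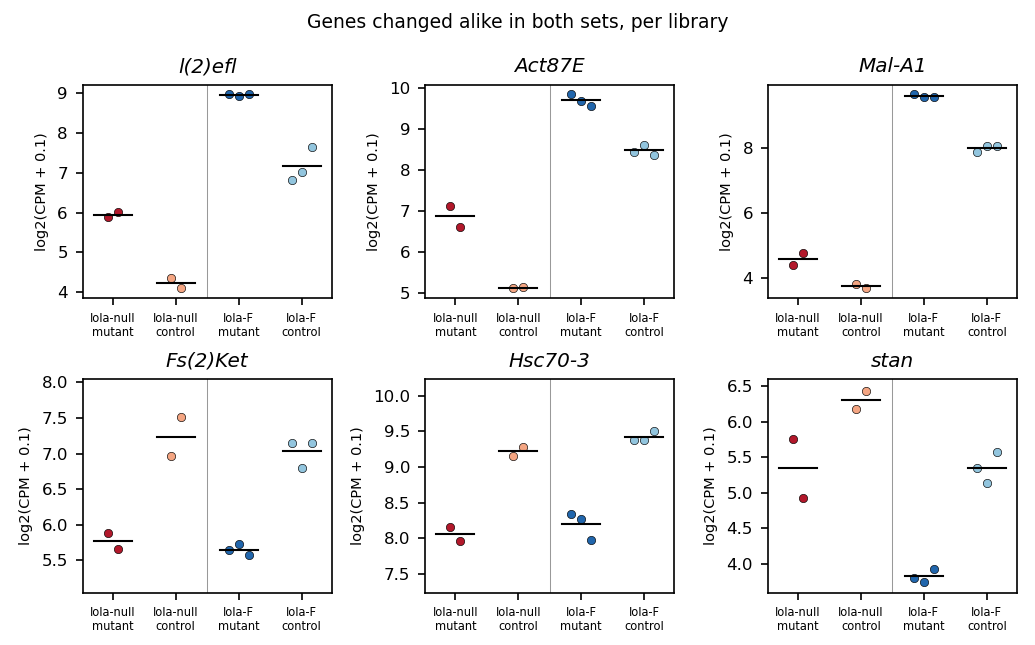
Level of 6 genes changed in the same direction in both sets, per library, as log2(CPM + 0.1), with lola-null mutants and controls left of the grey line, lola-F mutants and controls right of it, and bars at the group means. For l(2)efl, Act87E and Mal-A1 the mutants are above their controls in both sets, and for Fs(2)Ket, Hsc70-3 and stan below them.

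Because the lola-F calls of the 10-library fit were few, each set was also fitted on its own. The lola-null set then gave 689 higher (7.42%) and 881 lower genes (9.49%), and the lola-F set 338 higher (3.32%) and 382 lower (3.75%). These fits share no libraries. Of the 8807 genes tested in both, 51 were higher in both sets, 18.8% of the lola-F and 8.89% of the lola-null higher calls, and 127 were lower in both, 36.3% and 15.3% of the lower calls. For comparison, lola-null higher calls made up 6.52% and lower calls 9.44% of the 8807 genes. Only 11 genes were higher in lola-null and lower in lola-F mutants, and 2 the reverse. Of the 51 genes higher in both, 24 had a called difference and 2 an interval within −1 to 1. Of the 127 lower in both, 11 had a called difference and 3 an interval within −1 to 1.

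Neuronal genes had a lower summed level in the mutants of both sets. Of 40 neuron genes, none had a fitted lola-F change above 0 and 6 had a lola-null change above 0. Over all 10848 genes these numbers were 5106 and 6780. Fitted set by set, 21 passed as lower in lola-null mutants, 8 in lola-F mutants and 5 in both. Such lower calls made up 9.49% of all genes in the lola-null set and 3.75% in the lola-F set. The difference passed as lower in 1 (nSyb) and as higher in none, with a median difference of −0.24 and median changes of −1.35 and −0.99. The number called lower was 7 in DESeq2, 5 with upper quartile scaling and 8 with no low-count filter. It was 11 without lola-F control 3, with a median difference of −1.09, 4 without lola-null mutant 2, 3 without lola-F mutant 3, and 0 without lola-F control 1 or 2 or either lola-null control. The sum of the list was 736 and 416 CPM in lola-null mutants against 1613 and 1347 CPM in lola-null controls, and 3406, 3677 and 2232 CPM in lola-F mutants against 5184, 4423 and 7264 CPM in lola-F controls. Mutants were below controls without overlap in both sets, and the lola-null libraries were the lower of the 2 sets. nSyb, the synaptobrevin of neurons, was at 5.30 and 3.37 CPM in lola-null mutants against 30.7 and 23.7 CPM in lola-null controls, and at 204, 221 and 131 CPM in lola-F mutants against 221, 229 and 370 CPM in lola-F controls (difference −2.06 ± 0.49, edgeR adjusted p = 0.0304, lost in 8 of 20 alternatives, including without lola-F control 1 or 2, lola-null mutant 2 or either lola-null control).

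Axon guidance genes, the class for which lola is known, also had median changes below 0 in both sets. Of 58, the median change was −0.85 in the lola-null set and −0.65 in the lola-F set, the difference passed in 1 (Sema2b, lower, lost without lola-F control 1 or 2 or any 1 lola-null library), and set by set 22 passed as lower in lola-null mutants, 7 as lower and 1 as higher in lola-F mutants and 3 as lower in both. Set by set, lower calls made up 9.49% of all genes in the lola-null set and 3.75% in the lola-F set. The difference passed as lower in 5 axon guidance genes in DESeq2 and in 6 with upper quartile scaling or no low-count filter. It passed in 11 without lola-F control 3, with a median of −0.94, in 4 without lola-null mutant 1, and in 3 without lola-F mutant 3. Without lola-null mutant 2 the median was 0.11. The guidance cue gene Sema1a was at 17.7 and 14.8 CPM in lola-null mutants against 123 and 112 CPM in lola-null controls, and at 20.7, 24.3 and 14.5 CPM in lola-F mutants against 52.4, 38.8 and 76.5 CPM in lola-F controls, with a difference of −1.35 ± 0.44 that did not pass (edgeR adjusted p = 0.0892). Neuron and axon guidance genes have long exons, with medians of 6562 and 6048 bases. With each library's trend with exon length removed, the median changes of the neuron list were −0.40 and −0.25 and those of the axon guidance list −0.24 and −0.12. The change of a gene fell with exon length in both sets (Spearman's rho across genes −0.43 and −0.43, and −0.24 for the difference).

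Ribosomal protein and respiratory chain genes, which are short, were fitted as higher in the mutants of both sets, by like amounts in the 10-library fit. Of 84 cytosolic ribosomal protein genes, 80 had a lola-null and 82 a lola-F change above 0 (beside 6780 and 5106 of all 10848 genes), with medians of 0.86 and 0.74 and a median difference of 0.13. The difference passed as higher in 1 (RpLP0-like) and as lower in 1 (RpS5b), each lost without either lola-null control or lola-F control 1 among others, and its interval lay within −1 to 1 for 24 of the 84. All 69 respiratory chain genes had changes above 0 in both sets, with medians of 0.87 and 0.56; none had a called difference in edgeR, DESeq2 or limma-voom (4 at an unadjusted p under 0.05), and 26 had an interval within −1 to 1. The septate junction list had the highest such share, 12 of 24, beside 11.1% of all genes. In the 10-library fit 36 ribosomal and 35 respiratory chain genes passed as higher in lola-null mutants and none in lola-F mutants (50 and 33 in DESeq2), whereas set by set 0 and 0 passed as higher in lola-null mutants and 26 and 23 in lola-F mutants. Over all genes the shares higher in lola-null and lola-F mutants were 16.8% and 0.166% in the 10-library fit and 7.42% and 3.32% set by set. With the length trend removed the medians were 0.36 and 0.61 for ribosomal and 0.35 and 0.42 for respiratory chain genes. The likeness moved with single libraries. For ribosomal genes the median difference was 0.44 without lola-null mutant 1, −0.27 without lola-null mutant 2 and −0.45 without lola-F mutant 2. For respiratory chain genes it was 0.56, −0.09 and −0.24.

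**Figure D5:**
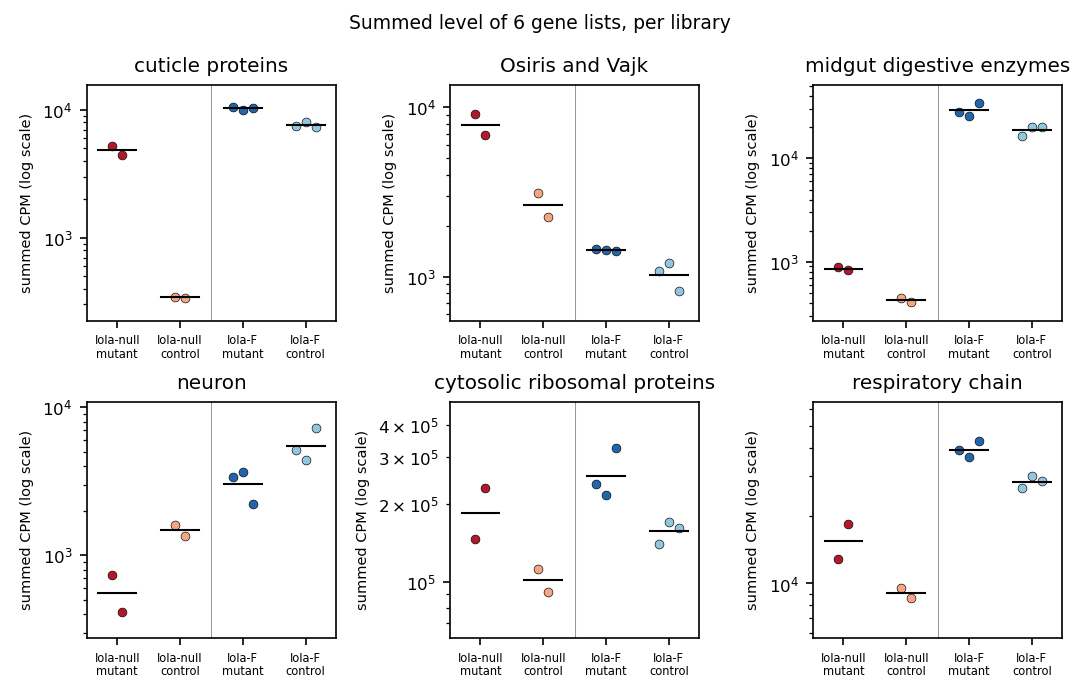
Summed CPM (log axis) of 6 gene lists in each library, with lola-null mutants and controls left of the grey line, lola-F mutants and controls right of it, and bars at the geometric means. Cuticle genes are lowest in the 2 lola-null controls, digestive enzymes are low in all 4 lola-null libraries, and neuron genes are lower in the mutants of both sets.

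Muscle genes shared part of their change. Of 36, the lola-null change passed as higher in 12 and as lower in 2 and the lola-F change as higher in 1, and set by set 9 passed as higher in each set and 7 in both. Over all genes the first 3 shares were 16.8%, 7.66% and 0.166%. Set by set, 7.42% of all genes passed as higher in the lola-null set and 3.32% in the lola-F set. The difference passed as higher in 6.90% and as lower in 1.69% of all genes. The sum was 13740 and 11200 CPM in lola-null mutants against 8325 and 6331 CPM in lola-null controls, and 56000, 53440 and 54690 CPM in lola-F mutants against 41780, 43780 and 46520 CPM in lola-F controls. Mutants were higher without overlap in both sets. The difference passed as higher for Mlc1, Mf and Mlp60A and as lower for Actn, and the first 3 were lost in 14 or 15 of 20 alternatives, among them scaling within sets and leaving out any 1 lola-F library or lola-null control 2. Actn, the actin crosslinker of the Z disc, had 99.1 and 79.5 CPM in lola-null mutants against 203 and 218 CPM in lola-null controls, and 1039, 1042 and 843 CPM in lola-F mutants against 742, 794 and 988 CPM in lola-F controls (difference −1.45 ± 0.30, edgeR adjusted p = 0.0169; not past 0.05 without lola-F control 1, lola-F control 2 or lola-null control 2).

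The other lists gave few or no differences, to be read beside the 6.90% of all genes called higher and 1.69% called lower. Among glial genes 3 of 23 passed as higher, and none without lola-null control 2; the glutamate transporter Eaat1 was at 8.45 and 2.92 CPM in lola-null mutants against 0.726 and 0.228 CPM in lola-null controls and at 95.1 to 137 CPM in the lola-F libraries (difference 3.91 ± 0.69, edgeR adjusted p = 0.00795, lost without lola-null control 2). Of 28 genes of blood cells and basement membrane 2 passed as higher, of 24 septate junction genes 1 as higher, of 18 serpins 1 as higher and of 32 germline and maternal genes 1 as lower. In the JAK/STAT and stress list 1 of 29 passed as lower (Socs16D, lost under the replicate block). In the heat shock list 2 of 18 passed as lower (Hsp27 and Hsp67Bc, the latter lost under the replicate block among other settings). No antimicrobial peptide gene (0 of 17) and no fat body gene (0 of 7) had a called difference in edgeR, although their median differences were 2.80 and 0.88; at an unadjusted p under 0.05 there were 1 and 3, and 0 and 1 passed in DESeq2 and 1 and 0 in limma-voom. Stress and immune genes whose differences did not pass included Ets21C (2.54 ± 0.85, edgeR adjusted p = 0.0961) and the serpin gene Spn88Ea (1.48 ± 0.51, edgeR adjusted p = 0.103).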

How the data were processed

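RNA-seq was made from whole embryos with a directional library kit, per the labels' protocols. The authors deposited raw read counts per gene, in files named as filtered with no filter stated. STAR 2.5.0c, HTSeq 0.6.1p1 and the build BDGP6 are named per the submitters' processing notes; the strand setting of the counting is not stated in them. The 17387 identifiers found in both kinds of file were used, and 17113 were matched to BDGP6.54 for symbols and coordinates; FBgn0005630 was taken as lola from general knowledge of that identifier. Summary rows were left out, and no column of per-sample values went unused (0).

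Counts were filtered with filterByExpr, scaled by TMM over 10 libraries and tested with edgeR 4.0.16 (quasi-likelihood F test, R 4.3.3), 1 mean per group, with Benjamini-Hochberg adjustment and a threshold of 0.05. DESeq2 1.42.0 and limma 3.58.1 (voom) were alternatives, with other scalings and filters, a replicate block, removal of each library's trend with exon length, and each library left out. Scaling within sets and a crossed block were chosen after seeing the data. Replicate numbers were not used as pairs in the main fit. Deviations of same-numbered mutants and controls from their group means had r = −0.168 in the lola-null set and −0.028, −0.090 and −0.105 in the lola-F set. With 2 libraries per group the lola-null value has the same size, with the other sign, when the pairs are crossed. These values thus do not decide whether the numbers mark pairs. Replicates differed by more than counting noise, and each was kept as a sample. The ratio to the chi-square of counting error was 3.08 for lola-F mutants 1 and 2 and 12.2 to 85.4 for every other pair. If lola-F mutants 1 and 2 are not independent samples, p-values that count them as separate are too small. Genes named in the text were, at 5 CPM or more in a group, the 10 with the smallest p of the difference in each direction, the 6 alike in each direction and those opposite or called in the lola-F set alone with the smallest p, up to 4 members of each list, and a fixed set (lola, psq and others). Further called genes (grh, Grp170, stan, wde, Pgant5, Cyt-b5-r and Tet among them) were singled out after their values were seen. Members and lists were chosen with earlier results of these data known. Scripts were tested on simulated data.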

Additional observations from a re-analysis of the deposited data

Results flagged for a closer look

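The test of the difference itself marked the contrast as a whole, with 749 genes higher and 183 lower in their lola-null than in their lola-F change. It also marked the 6 genes whose changes passed in opposite directions, each higher in lola-null mutants and lower in lola-F mutants against its own controls. Their differences on the log2 scale were 6.74 for zye, 2.39 for teq, 3.28 for CG10175, 4.49 for CG14567, 2.01 for CG7255 and 2.29 for CG7720.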

How the results depend on the processing

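The difference for lola, never past the threshold, ran from −0.87 to 0.84 with 1 library left out; none of the 932 called differences changed sign. With the length trend removed the lola-null change of stan (0.34) and the lola-F change of mei-P26 (0.05) turned positive, neither past the threshold. Higher differences numbered 388 with the replicate block and 241 to 1342 with 1 library left out. Lower differences numbered 47 with the replicate block, 335 in DESeq2, 361 with upper quartile scaling, 521 with no low-count filter, 287 with the length trend removed, 291 scaled within sets and 52 to 510 with 1 library left out. The lola-null change gave 900 higher and 507 lower genes with the replicate block, 900 and 1296 with no filter, 1190 higher scaled within sets, 689 higher on its own, and 703 to 2209 higher and 410 to 1410 lower with 1 library left out. The lola-F calls were the least stable: higher genes numbered 0 with the replicate block, 469 in DESeq2, 75 in limma-voom, 47 with relative log expression scaling and within sets, 91 with upper quartile scaling, 242 with no filter, 338 on its own and 0 to 280 with 1 library left out. Lower lola-F genes numbered 0 with the replicate block, 401 in DESeq2, 115 in limma-voom, 299 with no filter, 21 with the length trend removed, 382 on its own and 1 to 512 with 1 library left out. Genes alike and higher numbered 0 with the replicate block, 202 in DESeq2, 26 in limma-voom, 20 with relative log expression and 30 with upper quartile scaling, 40 with no filter, 14 with the length trend removed and within sets, 27 with each set on its own and 0 to 151 with 1 library left out. Genes alike and lower numbered 0 with the replicate block, 129 in DESeq2, 33 in limma-voom, 7 with relative log expression scaling, 68 with no filter, 3 with the length trend removed, 116 with each set on its own and 1 to 276 with 1 library left out. Opposite genes numbered 0 with the replicate block, 40 in DESeq2, 13 in limma-voom and on its own, 23 with no filter, 3 with the length trend removed and 0 to 44 with 1 library left out. Crossing the pairs in the lola-null set gave 534 higher and 79 lower differences, 0 lola-F calls and 0 alike or opposite genes. No pairing is stated for the replicate numbers, so a call lost under the block does not by itself show a weaker effect. The difference between the control sets was called in 5759 to 7692 genes throughout. The cause of these shifts was not tested.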
